A study of Caenorhabditis elegans with 66 samples.

Results

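In the nematode Caenorhabditis elegans, 3 subunits of SNAPc, the complex that activates small nuclear RNA genes, were mapped by chromatin immunoprecipitation and sequencing (ChIP-seq). They were SNPC-4, SNPC-1.2 and SNPC-1.1, and the regions described here are those listed for all 3. They were selected on the authors' peak lists of these subunits, so presence in those lists is not a finding. Each was listed for SNPC-1.1 in at least 2 of 3 libraries and carried no peak in untagged N2 worms of the same age and tissue. Each also overlapped a peak, by at least 1 bp, in at least 2 of 3 SNPC-1.2 libraries and in at least 2 of 3 SNPC-4 libraries at 72 h. Of 7959 SNPC-1.1 regions, 1035 overlapped an N2 peak at 56 h, and 6924 were left. Of these, 5657 were shared with SNPC-4, and 1369 were shared with both SNPC-4 and SNPC-1.2. These 1369 shared regions had a median width of 575 bp, between 252 and 5146 bp.

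SNAPc binds promoters of small nuclear RNA (snRNA) genes and recruits RNA polymerase II or III there, and SNPC-4 is its DNA-binding core subunit. In C. elegans the complex also acts at piRNA genes, which encode short germline RNAs that guide Argonaute silencing and sit mostly in clusters along chromosome IV. SNPC-1.1 and SNPC-1.2 are related proteins, as is SNPC-1.3, known for its role at piRNA genes of the male germline.

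The tagged proteins carried 3xFLAG. SNPC-1.2 was assayed in whole snpc-1.2::3xflag worms at 72 h (gravid adults) and in a strain of the same age that carried snpc-4::aid and Psun-1::tir1 beside that tag (dataset 1). This SNPC-4 AID strain has a degron tag on SNPC-4 and tir1 behind the sun-1 promoter, which is active in the germline. Whether it received auxin is not stated in the labels. SNPC-4 was assayed in whole snpc-4::3xflag; snpc-1.3(-) worms at 48 h, in whole snpc-4::3xflag; snpc-1.2(-) worms at 72 h, and in whole snpc-4::3xflag worms at 48 h (L4 larvae) and 72 h (dataset 2). SNPC-1.1 was assayed in germline nuclei of snpc-1.1::3xflag young adults at 56 h (dataset 3). Wild-type N2 worms without a tag were immunoprecipitated beside each dataset and age, so the 33 IP libraries form 11 groups of 3. Tissue, age and dataset differed between the subunits, so a region listed for all 3 need not be bound by all 3 in the same cells, and in whole worms occupancy per cell and the share of cells bound cannot be told apart.

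The 3 lists of a group differed in length, and the depth of the libraries is unknown. SNPC-1.1 lists held 14912, 1504 and 10238 peaks in replicates 2, 3 and 4, so the rule rested mainly on replicates 2 and 4, which listed 1369 and 1368 of the shared regions, against 150 in replicate 3. SNPC-1.2 lists held 9926, 8397 and 4791 peaks in replicates 1, 2 and 3, and listed 1368, 1331 and 690 of the shared regions. The SNPC-1.2 peak was present in exactly 2 lists at 718 shared regions and in 3 lists at 651. SNPC-4 was listed in all 3 libraries at 72 h at each of the 1369, although the rule asked for 2. All 9 lists held a peak at 109 shared regions. Without SNPC-1.1 replicate 3 and SNPC-1.2 replicate 3 and with both other lists required, the rule gave 1329 regions, 1325 of them among the 1369.

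Untagged worms of dataset 2, which the rule did not use, had peaks at many of the shared regions. A peak of at least 1 of the 6 N2 lists at 48 h or 72 h overlapped 759 of 1369 shared regions (55.4%), against 1094 of 3590 regions (30.5%) that were shared by SNPC-1.1 and SNPC-4 and had no SNPC-1.2 peak in any list. At 48 h the N2 lists of replicates 1, 2 and 3 covered 18.4, 30.9 and 7.89% of the shared regions, and at 72 h 28.1, 16.8 and 44.9%. The median authors' fold over input in these N2 lists was between 1.89 and 2.82 at the shared regions. The N2 lists of dataset 1, which hold 16, 2 and 2 peaks, covered none of them. The part of this background in the results below was not tested, and the shares by place and by gene class are given for the 610 shared regions without any N2 peak as well.

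Shared regions lay mostly on chromosome IV. It held 711 of the 1369 (51.9%), against 18.5% of all 6924 SNPC-1.1 regions. The 2 piRNA clusters, taken as IV 4.8 to 7 Mb and 13.6 to 17.3 Mb from the density of annotated piRNA genes, held 531 shared regions (38.8%), against 8.15% of all SNPC-1.1 regions. In the larger cluster 425 of 427 SNPC-1.1 regions were shared, and in the smaller cluster 106 of 137. The X chromosome held 51 shared regions (3.73%), against 17.9% of all SNPC-1.1 regions. Among the 610 shared regions without an N2 peak, 480 (78.7%) lay on chromosome IV, 422 (69.2%) in the clusters and 12 (1.97%) on the X chromosome.

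The width of the SNPC-1.2 peaks enters this distribution. In the clusters 438 of 531 shared regions overlapped a SNPC-1.2 region wider than 5 kb, against 1 of 838 elsewhere, and the median width of the widest SNPC-1.2 region over a shared region was 37586 bp in the clusters and 516 bp elsewhere. When SNPC-1.2 regions wider than 5 kb were not used, 957 shared regions were kept, 119 of them in the clusters. A SNPC-1.2 summit, the position of highest signal within a peak, lay inside the shared region itself at 1332 of 1369, and the 37 without one comprised 34 in the clusters and 3 elsewhere. In SNPC-1.2 replicate 3, 87.6% of the shared regions in the clusters and 26.9% of those elsewhere had a peak.

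Short RNA genes were present at 496 shared regions (36.2%), against 11.3% of all SNPC-1.1 regions and 4.51% of the regions without SNPC-1.2. A gene was counted where it overlapped the region or lay within 200 bp of the SNPC-1.1 summit. The piRNA genes made up most of this, with 331 shared regions (24.2%), against 5.20% of all SNPC-1.1 regions. This share changed with the treatment of wide SNPC-1.2 regions. When those wider than 5 kb were not used, 41 of 957 shared regions (4.28%) held a piRNA gene. That is below the 5.20% of all SNPC-1.1 regions, a set that keeps every region of the clusters. The setting also discards the summits within wide SNPC-1.2 regions. A SNPC-1.2 summit lay inside 314 of the 331 shared regions with a piRNA gene. In the same 957, tRNA genes were present at 102 (10.7%), snRNA, SmY or SL2 genes at 27 (2.82%) and no short RNA gene at 763 (79.7%). Of the 360 SNPC-1.1 regions with a piRNA gene 331 were shared, and 924 of the 15363 annotated piRNA genes (6.01%) lay at a shared region.

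Genes for the splicing and trans-splicing RNAs were present at few regions, and a large part of some of these families was among them. SmY RNA genes, nematode genes tied to trans-splicing, stood at 5 shared regions that took in 10 of the 12 annotated SmY genes. SL2 genes encode the leader that is trans-spliced onto downstream genes of operons, and 7 shared regions took in 9 of 18 SL2 genes. The snRNA genes of the spliceosome and other snRNA genes stood at 17 shared regions (1.24%), against 0.679% of all SNPC-1.1 regions, with 18 of 88 genes. No shared region held an SL1 gene. Copies of these families can be near-identical, so reads may have been split among them or lost, and the counts describe listed peaks only.

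Transfer RNA (tRNA) genes, transcribed by RNA polymerase III, were present at 122 shared regions (8.91%), against 3.73% of all SNPC-1.1 regions. All 25 SNPC-1.1 regions with a tRNA gene of the piRNA clusters were shared, with 27 of the 41 tRNA genes there. Elsewhere 97 of 233 SNPC-1.1 regions with a tRNA gene were shared. Genes for snoRNAs, which guide modification of ribosomal and other RNAs, were present at 37 shared regions (2.70%), against 1.3% of all SNPC-1.1 regions. Genes for miRNAs were present at 4 shared regions (0.292%), against 0.534% of all SNPC-1.1 regions. Ribosomal RNA genes were present at none.

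Protein-coding genes overlapped or lay near 909 shared regions (66.4%), a share close to the 64.3% of all SNPC-1.1 regions. Ribosomal protein genes were present at 23 shared regions (1.68%), against 0.419% of all SNPC-1.1 regions and none of the 3590 regions without SNPC-1.2. Histone genes were present at 2. Of the genes for SNAPc subunits, snpc-3.1 alone lay at a shared region. No short RNA gene was found at 873 shared regions (63.8%). At 396 of these 873 (45.4%) the SNPC-1.1 summit lay within 200 bp of an end of a protein-coding gene, against 26.2% of the SNPC-1.1 regions and 18.9% of the regions without SNPC-1.2 that lacked a short RNA gene. The annotation used gives no strand, so starts and ends of genes were not told apart.

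The classes differed in how often an N2 peak of dataset 2 lay at the region. It did at 14.8% of the shared regions with a piRNA gene, 74.6% of those with a tRNA gene, 89.2% of those with a snoRNA gene and 62.1% of the 29 with an snRNA, SmY or SL2 gene. It did at 22 of 23 shared regions with a ribosomal protein gene and at 66.1% of those with no short RNA gene. Among the 610 shared regions without an N2 peak, 282 (46.2%) held a piRNA gene, against 6.82% of the SNPC-1.1 regions without an N2 peak. In the same comparison tRNA genes were present at 31 (5.08%), against 2.23%, and snRNA, SmY or SL2 genes at 11 (1.8%), against 0.804%. Genes for snoRNAs were present at 4 (0.656%), against 0.459%, so most of the snoRNA regions had an N2 peak. Ribosomal protein genes were present at 1 (0.164%), against 0.0459%, and miRNA genes at 1 (0.164%), against 0.413%. No short RNA gene was found at 296 (48.5%), against 89.6%, and at 118 of these 296 (39.9%) the SNPC-1.1 summit lay within 200 bp of an end of a protein-coding gene, against 22.1%.

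**Figure D1:**
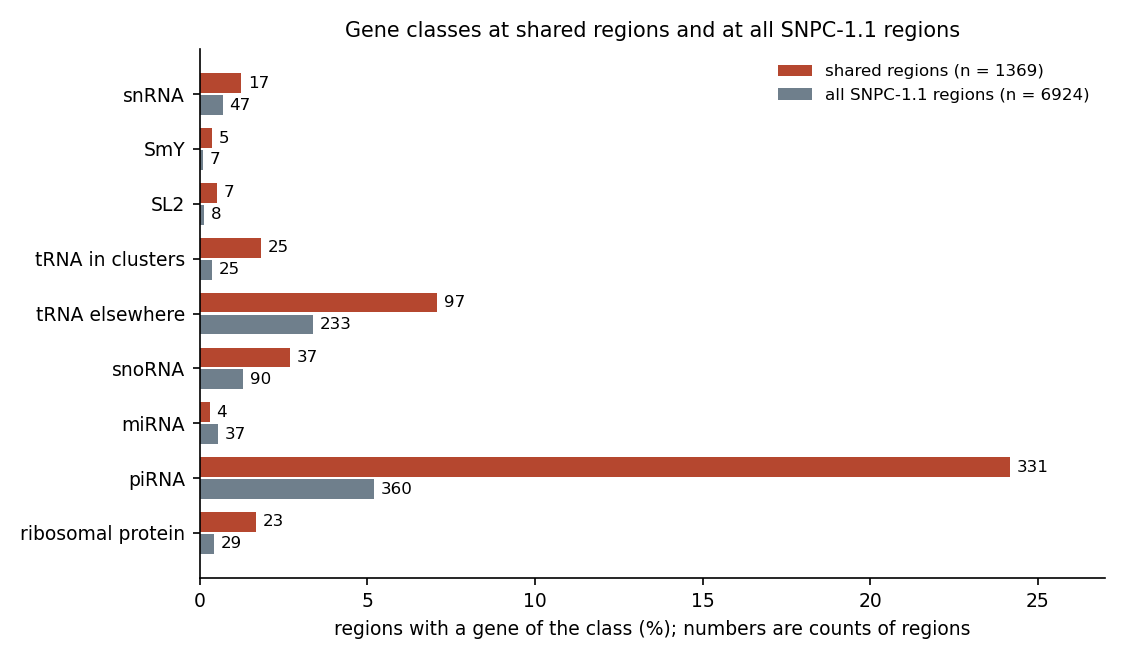
Percent of regions with a gene of each class (horizontal axis) among the 1369 shared regions and among all 6924 SNPC-1.1 regions, with the count of regions beside each bar. The bars for piRNA genes are the longest, 24.2% of the shared regions against 5.20% of all SNPC-1.1 regions, and the miRNA class is the one drawn where the bar of the shared regions is the shorter.

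The height of the peaks set the classes apart, and in a different order for each subunit. Heights are the authors' fold of IP over input at the summit, and each class is set against the median of all shared regions within the same list. Each median covers only the regions with a summit in that list. Of the 1369 shared regions, 150 had a summit in SNPC-1.1 replicate 3 and 601 in SNPC-1.2 replicate 3. In SNPC-1.1 replicate 3 these took in 55 of 306 regions with piRNA genes alone and 35 of 873 without a short RNA gene. Across all shared regions that median was 4.29, 2.76 and 3.53 in SNPC-1.1 replicates 2, 3 and 4, 3.89, 3.14 and 3.66 in SNPC-1.2 replicates 1, 2 and 3, and 6.37, 5.89 and 7.19 in SNPC-4 replicates 1, 2 and 3 at 72 h. These lists chose the regions, so the class values are a description without a test.

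At the 17 regions with an snRNA gene the median fold was 58.2, 7.19 and 61.4 in the SNPC-1.1 lists and 76.3, 65.5 and 81.9 in the SNPC-4 lists. In the SNPC-1.2 lists the same regions had medians of 4.81, 3.99 and 4.00, the last over 10 of the 17 regions. The snRNA regions thus stood far above the other shared regions for SNPC-1.1 and SNPC-4 and close to them for SNPC-1.2. The 7 SL2 regions had medians of 75.1, 7.30 and 68.7 for SNPC-1.1, 5.35, 3.97 and 9.44 for SNPC-1.2 and 97.4, 82.6 and 111 for SNPC-4, and the 5 SmY regions likewise stood far above the other shared regions in the SNPC-1.1 and SNPC-4 lists.

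Named regions of these families show the range. The region at IV:12780638-12783934 with the snRNA gene ZK897.2 (IV:12782066-12782187) had folds of 104, 10.4 and 96.5 for SNPC-1.1, 7.73, 7.63 and 7.63 for SNPC-1.2 and 122, 101 and 137 for SNPC-4. At IV:5316883-5318177, over the SL2 gene sls-2.17, folds were 86.6, 7.30 and 68.7 for SNPC-1.1, 13.8, 21.6 and 15.1 for SNPC-1.2 and 116, 99.0 and 127 for SNPC-4. Both had a peak in all 9 lists, and sls-2.17 is among the regions of this family with the highest SNPC-1.2 folds. The region with smy-8, smy-10 and smy-9 at IV:13599204-13602781 had folds of 68.7, 7.63 and 56.2 for SNPC-1.1, 17.6, 14.8 and 12.0 for SNPC-1.2 and 62.3, 53.6 and 70.5 for SNPC-4. By contrast smy-7 (IV:6460683-6460764) had folds of 15.4, 3.00 and 17.9 for SNPC-1.1 and 3.95 and 5.01 in SNPC-1.2 replicates 1 and 2, with no peak summit in replicate 3, and 24.9, 18.3 and 24.9 for SNPC-4.

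The RNase P RNA gene rpr-1, on chromosome I, encodes the RNA of the enzyme that trims the 5′ ends of tRNA precursors. Its region had folds of 222, 19.2 and 126 for SNPC-1.1 and 199, 176 and 230 for SNPC-4, but 2.70 and 2.31 in SNPC-1.2 replicates 1 and 2 and none in replicate 3. All 6 N2 lists of dataset 2 had a peak there. It was the single shared region among the 3 SNPC-1.1 regions with a gene for the RNA of RNase P, RNase MRP or a Y RNA.

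The tRNA genes of the piRNA clusters showed the other order. At their 25 regions the median fold was 27.4, 25.8 and 20.5 in the SNPC-1.2 lists and 36.2, 32.3 and 39.7 in the SNPC-4 lists, and 4.91, 3.82 and 4.48 in the SNPC-1.1 lists. The value of SNPC-1.1 replicate 3 rests on 6 of the 25. Against the medians of all shared regions these medians were far higher for SNPC-1.2 and SNPC-4 and close for SNPC-1.1. The 97 regions with a tRNA gene elsewhere had medians of 3.73, 3.47 and 3.43 for SNPC-1.1, 3.03, 2.73 and 3.27 for SNPC-1.2 and 4.86, 4.23 and 5.59 for SNPC-4, below the shared regions' median in all 3 SNPC-1.2 lists and all 3 SNPC-4 lists. The value of SNPC-1.1 replicate 3 rests on 11 of the 97 and that of SNPC-1.2 replicate 3 on 27. Among the 97, K02D7.t1 (IV:322632-322703) had folds of 3.79 and 3.78 in SNPC-1.1 replicates 2 and 4, 2.72 and 4.49 in SNPC-1.2 replicates 1 and 2 and 5.09, 4.18 and 5.79 for SNPC-4.

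Single tRNA genes of the larger cluster ranged widely for SNPC-1.1. Y7A9D.t3 (IV:16382431-16382503) had folds of 4.69 and 5.16 in SNPC-1.1 replicates 2 and 4 and none in replicate 3, 42.5, 34.4 and 36.5 for SNPC-1.2 and 52.6, 41.5 and 55.2 for SNPC-4. Y37A1B.t1 (IV:14013805-14013876) had folds of 119, 10.3 and 78.7 for SNPC-1.1, 34.3, 29.6 and 22.4 for SNPC-1.2 and 98.8, 85.3 and 116 for SNPC-4. SNPC-1.2 was thus high at both, and SNPC-1.1 at Y37A1B.t1 alone.

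The 37 snoRNA regions had medians of 11.3, 7.57 and 8.00 for SNPC-1.1, 4.16, 3.29 and 4.18 for SNPC-1.2 and 10.5, 8.72 and 11.4 for SNPC-4, above those of all shared regions in every one of the 9 lists. The snoRNA gene M03D4.78 (IV:6117751-6117876) in the smaller cluster had folds of 117, 10.2 and 84.4 for SNPC-1.1, 15.1, 21.7 and 14.9 for SNPC-1.2 and 119, 98.6 and 127 for SNPC-4. At 306 regions the short RNA genes were piRNA genes alone. Their medians were 5.61, 1.98 and 3.52 for SNPC-1.1, 6.67, 5.13 and 3.81 for SNPC-1.2 and 7.01, 6.30 and 8.28 for SNPC-4. The highest among these 306 regions by the rule for named genes held 21ur-1872, 21ur-15698 and 21ur-1091 (IV:14525167-14526319), with folds of 36.7, 3.74 and 35.0 for SNPC-1.1, 30.5, 29.8 and 21.6 for SNPC-1.2 and 55.2, 44.8 and 59.6 for SNPC-4.

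Of the 4 miRNA regions, that of mir-51 (IV:11026013-11026112) had the highest folds, 14.0 and 11.8 in SNPC-1.1 replicates 2 and 4, 4.14 and 2.99 in SNPC-1.2 replicates 1 and 2 and 13.1, 9.82 and 18.6 for SNPC-4. The 23 ribosomal protein regions had medians of 5.69 and 5.00 in SNPC-1.1 replicates 2 and 4 with no listed summit in replicate 3, 3.62, 3.26 and 4.31 for SNPC-1.2 and 6.46, 6.25 and 7.69 for SNPC-4, near those of all shared regions. At rpl-29 (IV:13882225-13882618), a large-subunit gene in the larger cluster, SNPC-1.2 folds were 22.0, 19.9 and 18.3 and SNPC-4 folds 40.4, 34.2 and 42.7, with 8.10 and 6.20 in SNPC-1.1 replicates 2 and 4. The region at IV:5486256-5486693, beside snpc-3.1 and puf-7, had folds of 1.45 and 2.88 in SNPC-1.1 replicates 2 and 4, 7.67, 9.43 and 5.08 for SNPC-1.2 and 17.7, 18.1 and 16.9 for SNPC-4.

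The 873 regions without a short RNA gene had medians of 3.74, 2.29 and 3.39 for SNPC-1.1, 3.61, 2.86 and 3.39 for SNPC-1.2 and 5.93, 5.48 and 6.59 for SNPC-4. High folds occurred here too. The region IV:13855183-13855906 in the larger cluster, with no annotated short RNA gene, had folds of 42.2, 4.01 and 39.0 for SNPC-1.1, 13.7, 15.0 and 12.3 for SNPC-1.2 and 55.6, 49.0 and 59.7 for SNPC-4.

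**Figure D2:**
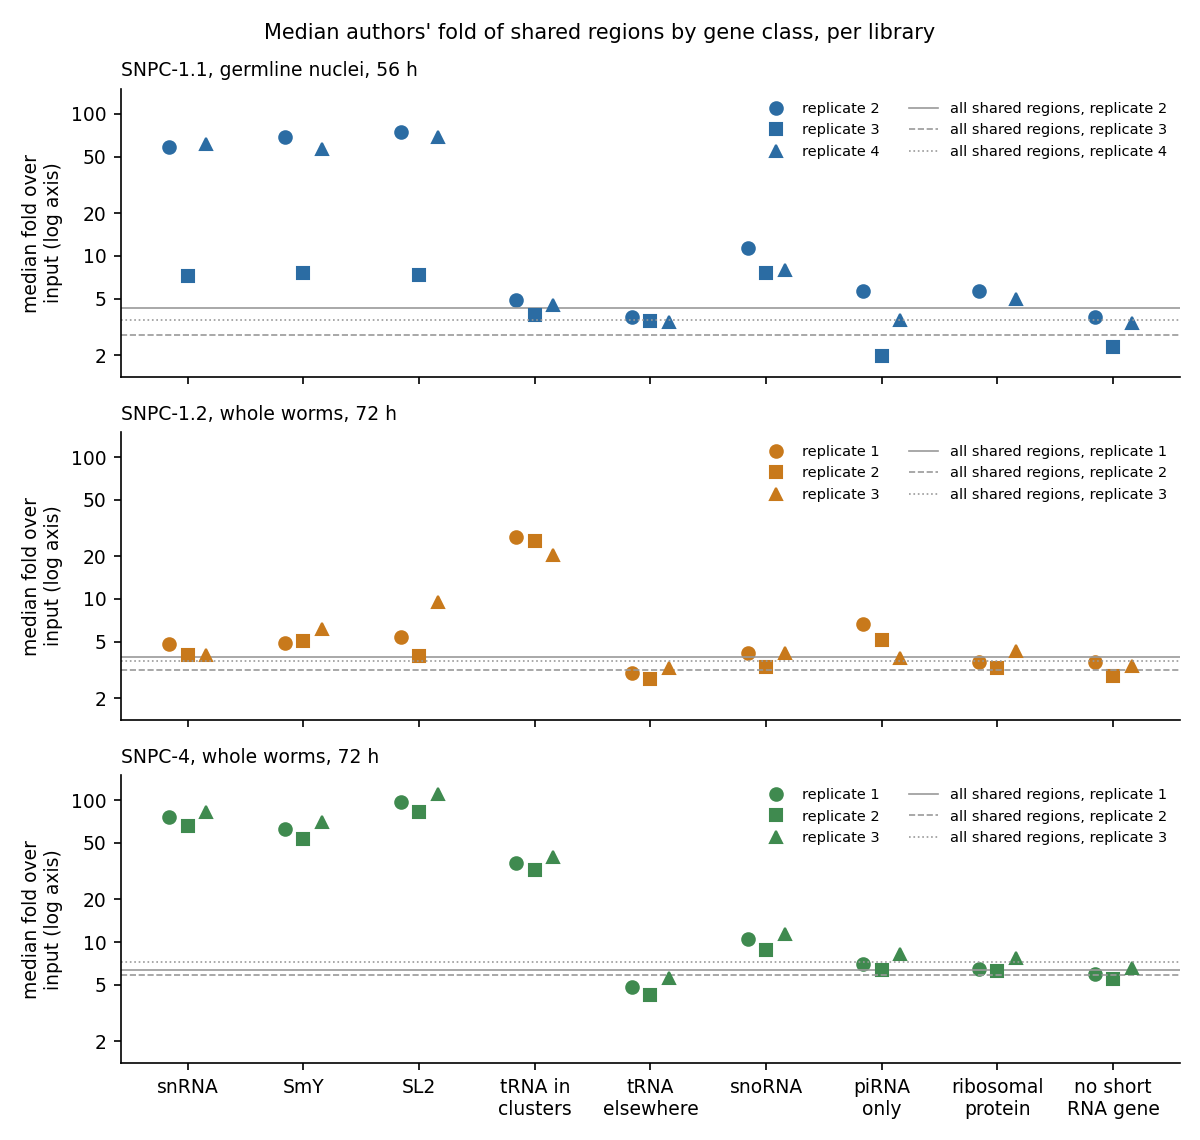
Median authors' fold over input of the shared regions in each gene class (log axis), one panel for each subunit, with a symbol for each of 3 replicates and grey lines for the median of all shared regions in that replicate. Each median covers only the regions with a summit in that list. The rpr-1 region and the miRNA and histone classes are not drawn. Of the 9 classes drawn, snRNA, SmY and SL2 have the 3 highest medians in SNPC-1.1 replicates 2 and 4 and in the SNPC-4 lists, and the tRNA genes in the clusters lie highest for SNPC-1.2, at 20.5 to 27.4.

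Across shared regions the folds of SNPC-1.1 and SNPC-1.2 were less alike in rank than either was to SNPC-4. Spearman's rho was 0.238 for SNPC-1.1 with SNPC-1.2 (n = 1332 regions), 0.675 for SNPC-1.1 with SNPC-4 (n = 1361) and 0.613 for SNPC-1.2 with SNPC-4 (n = 1330). The first of these was 0.0417 in the clusters (n = 497) and 0.306 elsewhere (n = 835). Between replicates of one subunit rho was 0.955 to 0.963 for SNPC-4, 0.809 to 0.953 for SNPC-1.1 and 0.768 to 0.818 for SNPC-1.2. Outside the clusters, SNPC-1.2 replicates had a rho of 0.408 to 0.57 with each other, about that of SNPC-1.2 with SNPC-4 there (0.569), so the ranks of SNPC-1.2 folds are less sure outside the clusters. These are descriptions over regions that share the same libraries, and tissue and age differ between subunits.

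Distances between the summits of the 3 subunits are given as a description. The peaks that hold these summits chose the regions, and only summits inside a region, of median width 575 bp, were used. Short distances are therefore partly set by the choice, and the distance expected from the width was not computed. The position of a subunit in a region was the median, over its lists, of the summit of highest fold. The median distance was 29.5 bp between SNPC-1.1 and SNPC-1.2, 11 bp between SNPC-1.1 and SNPC-4 and 21.3 bp between SNPC-1.2 and SNPC-4, and 62.2, 80.8 and 73.7% of regions, in the same order, were within 50 bp. Replicates of one subunit differed by a median of 29 to 50 bp for SNPC-1.2, 9 to 14 bp for SNPC-1.1 and 6 to 7 bp for SNPC-4. Between single lists of 2 subunits the medians were 28 to 93 bp for SNPC-1.1 with SNPC-1.2 and 21 to 54 bp for SNPC-1.2 with SNPC-4. Both ranges overlap that between SNPC-1.2 replicates and reach above it, which limits any offset that can be read. At the 610 shared regions without an N2 peak the medians were wider, at 50.5 bp (SNPC-1.1 to SNPC-1.2), 17.5 bp (SNPC-1.1 to SNPC-4) and 37 bp (SNPC-1.2 to SNPC-4).

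Distances were wider in the piRNA clusters. There they were 80 bp (SNPC-1.1 to SNPC-1.2), 22 bp (SNPC-1.1 to SNPC-4) and 49 bp (SNPC-1.2 to SNPC-4), against 21, 7.75 and 16 bp elsewhere. Between replicates, SNPC-1.2 summits were also farther apart there, by a median of 46 to 61 bp in the clusters and 26 to 39 bp elsewhere. Wide regions hold several summits, and at the 837 regions with at most 1 summit in every list the medians were 20, 8 and 17 bp over all places, with 39.5 bp between SNPC-1.1 and SNPC-1.2 in the clusters and 17 bp elsewhere. Regions whose short RNA genes were piRNA genes alone had distances of 109.5, 27 and 73 bp, and regions with an snRNA, SmY or SL2 gene had 24, 3 and 24 bp. At tRNA genes of the clusters they were 16, 13 and 7 bp. Summits of the 9 SNPC-4 libraries the rule did not use lay a median of 7 to 9 bp from the SNPC-4 position at 72 h, 11 to 12.5 bp from SNPC-1.1 and 21 to 25 bp from SNPC-1.2.

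**Figure D3:**
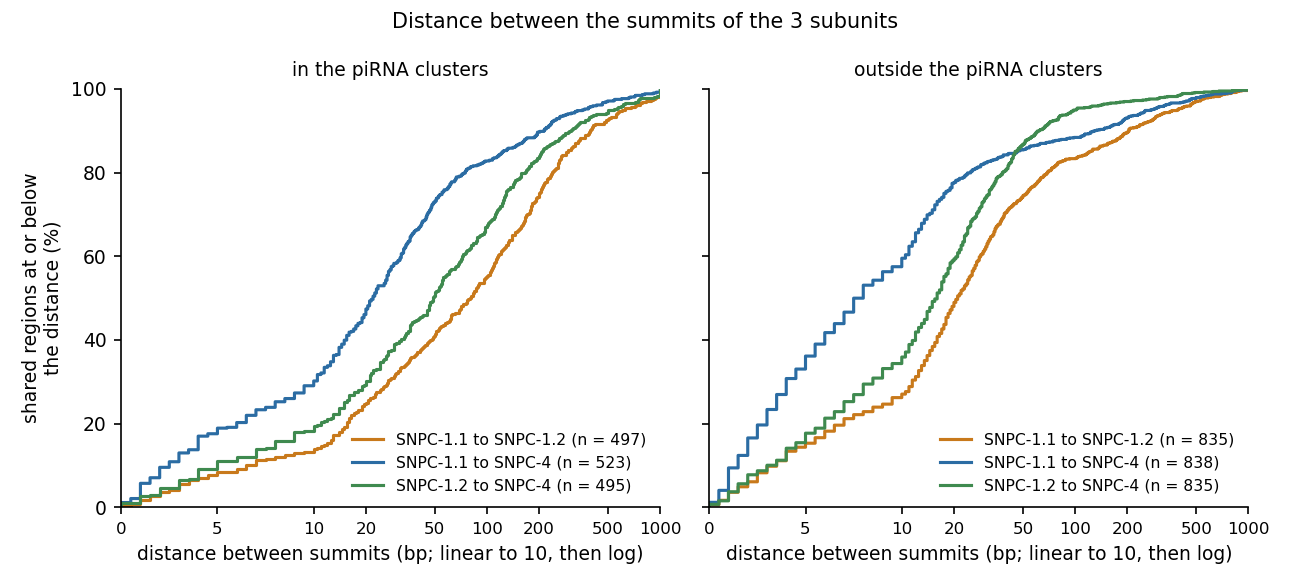
Percent of shared regions (vertical axis) at or below a given distance between the summits of 2 subunits (horizontal axis in bp, linear to 10 bp and logarithmic above, with distances over 1000 bp drawn at 1000 bp), in the piRNA clusters (left) and outside them (right). The curve for SNPC-1.1 and SNPC-4 rises first in both panels, with medians of 22 bp in the clusters and 7.75 bp elsewhere.

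The position of the summits relative to the gene differed between kinds of short RNA gene. It was read at regions with exactly 1 short RNA gene other than piRNA genes. At 95 such regions with a tRNA gene (median length 72 bp) the summit lay inside the gene at 76 for SNPC-1.1, 84 for SNPC-1.2 and 87 for SNPC-4. At 22 regions with an snRNA, SmY or SL2 gene it lay inside the gene at none for SNPC-1.1, 7 for SNPC-1.2 and none for SNPC-4, with a median of 34, 11 and 37.5 bp outside. At 34 snoRNA regions it lay inside at 3, 9 and 2, with medians of 32.5, 18.8 and 26.5 bp outside. Summits of SNPC-1.2 replicates lay a median of 29 to 50 bp apart over all shared regions. The SNPC-1.2 summits nearer to these 2 kinds of gene therefore do not establish a difference between subunits. The SNPC-4 libraries at 48 h and without snpc-1.2, which the rule did not use, gave 84 and 87 of 95 inside tRNA genes and none of 22 inside snRNA, SmY or SL2 genes. At sls-2.17 (IV:5317260-5317368), for example, summits stood 28 bp outside the gene for SNPC-4, 30 bp for SNPC-1.1 and 23 bp for SNPC-1.2, and at ZK897.2 they stood 36, 37 and 3 bp outside in the same order.

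**Figure D4:**
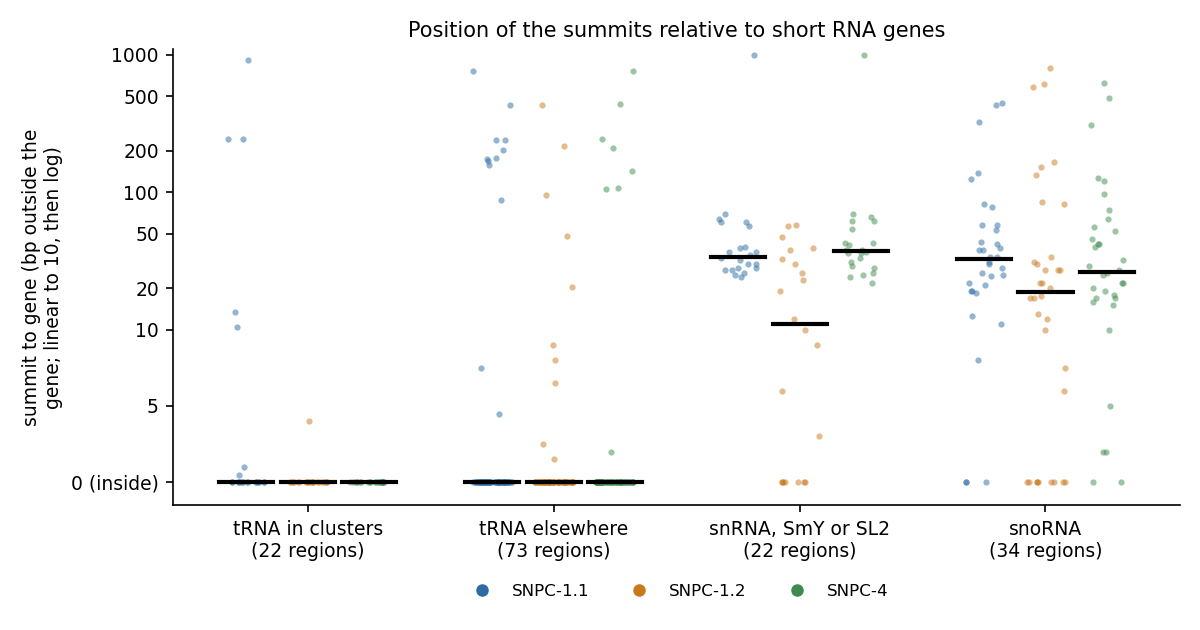
Distance of the summit of each subunit from the gene (vertical axis in bp outside the gene, 0 where the summit is inside, linear to 10 bp and logarithmic above, with distances over 1000 bp drawn at 1000 bp) at shared regions with exactly 1 short RNA gene of the class named below. Each point is a region and black bars are medians, which are 0 at tRNA genes and, at snRNA, SmY or SL2 genes, 34 bp for SNPC-1.1, 11 bp for SNPC-1.2 and 37.5 bp for SNPC-4.

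In a few regions the positions of the subunits lay far apart, and in the first given here they stood at different genes. A position rests on the summit of highest fold in each list, so a lower summit of the same subunit may lie elsewhere in the region. At IV:15234045-15235680 the SNPC-1.1 and SNPC-4 summits stood 22 and 32 bp outside a snoRNA gene (IV:15234446-15234620), while the SNPC-1.2 summit lay 996 bp from that of SNPC-1.1, inside the tRNA gene Y73F8A.t1 (IV:15235388-15235460). Folds there were 38.8, 4.86 and 36.8 for SNPC-1.1, 40.3, 38.8 and 31.1 for SNPC-1.2 and 63.6, 48.7 and 58.9 for SNPC-4. In the widest shared region, IV:14609526-14614671, the SNPC-1.2 and SNPC-4 summits lay inside the tRNA gene F13G11.t1 (IV:14611307-14611379) and the SNPC-1.1 summit 917 bp outside it. The largest distance between SNPC-1.1 and SNPC-1.2, 2492 bp, was in the region with 21ur-10689 and 21ur-3797 at IV:15936980-15941496, where the SNPC-4 summit lay 60 bp from that of SNPC-1.2. On chromosome V, in the region with the tRNA gene T19C4.t1 and the snoRNA gene T19C4.12 (V:11173754-11177934), SNPC-4 lay 8 bp from SNPC-1.1 and 1091 bp from SNPC-1.2. The SNPC-1.1, SNPC-4 and SNPC-1.2 summits there stood 1184, 1176 and 85 bp outside T19C4.12, and farther outside T19C4.t1.

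Peaks at another age and without a paralogue were read in libraries that the rule did not use. The rule chose regions with SNPC-4 peaks at 72 h of the same dataset, so a high SNPC-4 share beside N2 follows in part from the choice. Over the shared regions, SNPC-4 folds at 72 h had a Spearman's rho of 0.84 with those at 48 h. With those of the snpc-1.2(-) worms it was 0.916. SNPC-4 at 48 h had a peak at 99.2, 98.8 and 98.1% of the shared regions in replicates 1, 2 and 3, a mean of 98.7% ± 0.552, against 19.1% ± 11.5 in N2 at 48 h (SD, n = 3 each). The difference was 79.6 points (exact two-sided permutation test, p = 0.1, adjusted p = 0.12). Of 3 against 3 libraries, 0.1 is the smallest p possible, so no such comparison can pass 0.05. The 2 groups did not overlap. Over all SNPC-1.1 regions the mean share was 82.2% for SNPC-4 at 48 h and 11.8% for N2 at 48 h. The widest region of each SNPC-4 list was between 82751 and 169707 bp. For SNPC-4 at 48 h the mean share was 100% of the shared regions in the piRNA clusters and 97.85% elsewhere. How far the width of SNPC-4 regions sets these shares was not tested. At 839 shared regions (61.3%) every SNPC-4 library and not a single N2 library at 48 h had a peak, against 55.2% of all SNPC-1.1 regions and 67.7% of the regions without SNPC-1.2, so this count does not set the shared regions apart.

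At 48 h, 7 of 1369 shared regions had no SNPC-4 peak in any library, against 161 of the 3590 regions without SNPC-1.2. The 6 named by rule had SNPC-4 folds at 72 h below the median of all shared regions in each list. They include the region at W06B4.2 on chromosome II (II:4470967-4471351), with SNPC-4 folds at 72 h of 5.58, 4.94 and 6.57, and that at C26E6.12 on chromosome III (III:4930249-4930538), with 4.11, 4.69 and 4.79. Untagged N2 of dataset 2 also had peaks at W06B4.2 at 72 h, with folds of 2.40 and 2.96 in replicates 1 and 3, and none at 48 h. No N2 list of dataset 2 had a peak at C26E6.12. At klp-16, which encodes a kinesin-like protein, SNPC-4 folds at 72 h were 2.64, 3.11 and 3.47, and N2 replicate 1 at 72 h had a fold of 1.72.

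Without snpc-1.3 nearly all shared regions had a SNPC-4 peak at 48 h, as they did with it. The share with a peak was 99.5, 98.0 and 99.1% in the 3 libraries, a mean of 98.8% ± 0.790, against 98.7% ± 0.552 in worms with snpc-1.3 (SD, n = 3 each). The difference of 0.146 points was smaller than the spread between replicates (exact permutation test, two-sided, p = 0.8, adjusted p = 0.8). Over all SNPC-1.1 regions the means were 82.9% without snpc-1.3 and 82.2% with it. No shared region lost its peak in all 3 libraries after having it in all 3, against 0.116% of all SNPC-1.1 regions, and none gained one in the same sense, against 0.144%. Shares this near 100% leave little room for a difference, and the height of the peaks was not compared between lists, so a smaller change in SNPC-4 could not be seen. A peak was found in no snpc-1.3(-) library at 4 shared regions, against 130 of the 3590 regions without SNPC-1.2. The 4 were those of klp-16, W06B4.2, K10C8.4 and III:9818029-9818396. With snpc-1.3 the first 2 had no peak at 48 h either, while K10C8.4 had folds of 2.09 and 2.75 and III:9818029-9818396 folds of 2.31 and 2.04 in SNPC-4 replicates 1 and 2, with none in replicate 3.

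Without snpc-1.2 the shared regions also had SNPC-4 peaks at 72 h. The share was 99.8, 99.8 and 100% in the 3 libraries, a mean of 99.9% ± 0.127, against 29.9% ± 14.1 in N2 at 72 h of the same dataset (SD, n = 3 each). The difference was 69.9 points (exact two-sided permutation test, p = 0.1, adjusted p = 0.12), and the groups did not overlap. Here too the choice of regions by SNPC-4 peaks at 72 h favours a high SNPC-4 share. Over all SNPC-1.1 regions the mean share was 74.4% in the snpc-1.2(-) libraries and 15.8% in N2 at 72 h. All 3 snpc-1.2(-) libraries had a peak at 1363 of 1369 shared regions, and 2 of 3 did at the other 6. By the same count against N2 at 72 h, 687 shared regions (50.2%) qualified, against 44.7% of all SNPC-1.1 regions and 58.2% of the regions without SNPC-1.2, so this count does not set the shared regions apart either. At regions with an snRNA, SmY or SL2 gene the median fold was 64.8, 83.5 and 112 in the snpc-1.2(-) libraries, and at tRNA genes of the clusters it was 36.2, 36.0 and 49.1, against medians of 4.75, 4.99 and 6.61 over all shared regions in the same lists.

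SNPC-1.2 had few peaks at the shared regions in the SNPC-4 AID strain. A peak was listed at 99, 26 and 22 of them in replicates 1, 2 and 3, a mean of 3.58% ± 3.17, against 0 in each of the 3 N2 libraries of dataset 1 (SD, n = 3 each; exact two-sided permutation test, p = 0.1, adjusted p = 0.12). With 16, 2 and 2 peaks in all, those N2 lists could hardly cover a shared region, so this test says little of the AID strain. Without AID replicate 1 the mean difference was 1.75 points. Over all SNPC-1.1 regions the mean share in the AID strain was 0.732%. In snpc-1.2::3xflag worms, whose lists chose the regions, the shares were 99.9, 97.2 and 50.4%. These lists held 281, 81 and 67 peaks in all in the AID strain, and how far depth sets that length was not tested.

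The peaks that recurred in the AID strain were mostly at tRNA genes. All 3 AID libraries had a peak at 18 shared regions (1.31%), against 0.26% of all SNPC-1.1 regions, and the 18 lay in the larger piRNA cluster. Of these, 15 held a tRNA gene, out of 25 shared regions with a tRNA gene of the clusters, and at 14 of the 15 the AID summit lay inside the tRNA gene. Folds in AID replicates 1, 2 and 3 were 8.61, 5.77 and 6.62 at Y7A9D.t3, 6.87, 5.81 and 6.95 at Y73F8A.t1, and 5.79, 5.69 and 5.82 at F13G11.t1. These are genes where SNPC-1.2 folds in snpc-1.2::3xflag worms were also high, 42.5, 34.4 and 36.5 at the first. The 3 recurring regions without a tRNA gene held piRNA genes, 1 with 21ur-6987, 1 with 21ur-11151 and neighbours and 1 with 21ur-6577 and 21ur-10279. None of the 29 regions with an snRNA, SmY or SL2 gene had a peak in all 3 AID libraries. With such peaks at 1.31% of all shared regions, their absence from 29 regions does not set these genes apart. An AID peak in any library was found at 99 shared regions, 29 of them with a tRNA gene and 67 in the clusters. It was found at 1 of the 3590 regions without SNPC-1.2.

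**Figure D5:**
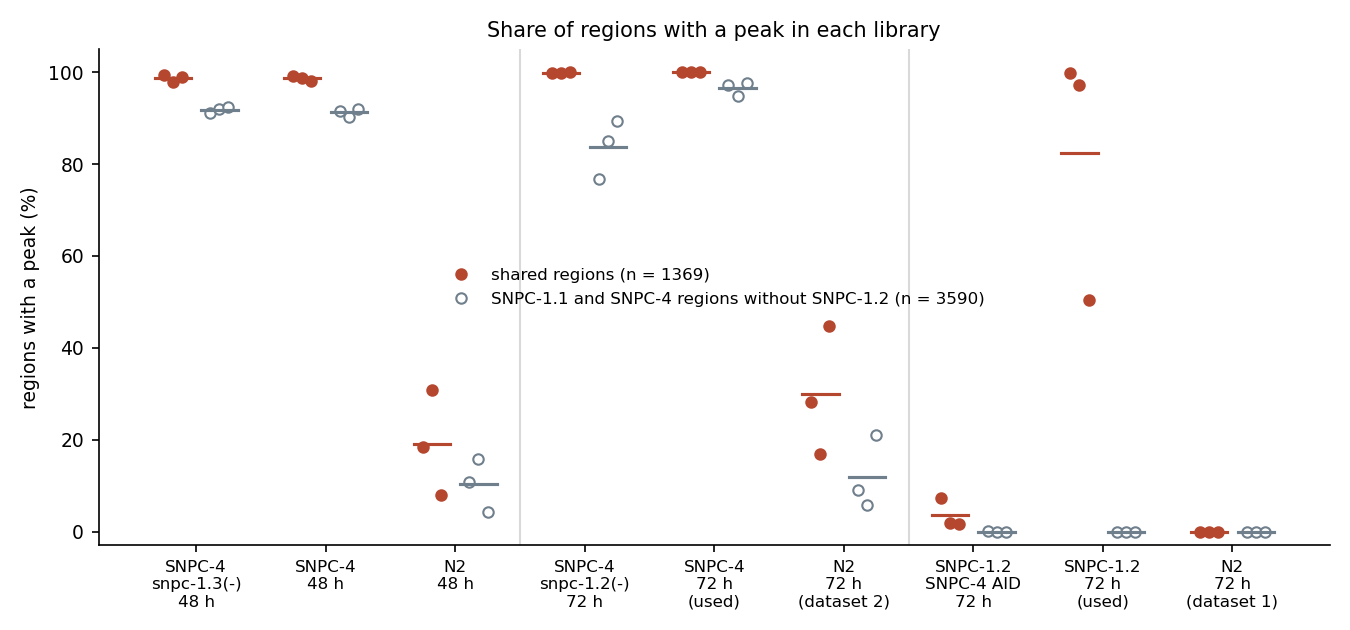
Percent of regions with a peak (vertical axis) in each library, for the 1369 shared regions (filled) and the 3590 regions of SNPC-1.1 and SNPC-4 without SNPC-1.2 (open), with points for 3 libraries a group and lines for their mean. Groups marked as used chose the regions. The shared regions lie at 98.0 to 100% in the 9 SNPC-4 libraries that were not used, above the open points in each, and at 1.61 to 7.23% in the AID strain.

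The shared regions were compared with the 3590 SNPC-1.1 and SNPC-4 regions that lacked SNPC-1.2, over the 9 SNPC-4 libraries that chose neither set. The 2 sets already differed in the SNPC-4 lists at 72 h that chose them. Median folds there were 6.37, 5.89 and 7.19 at the shared regions and 3.45, 3.18 and 3.99 at the others. All 3 of these lists held a peak at 1369 of 1369 and 3221 of 3590 regions. How far this choice sets the differences in peak share and in fold was not tested. A peak was present at a mean of 99.1% ± 0.735 of the shared regions, against 88.9% ± 5.11 of the regions without SNPC-1.2 (SD, n = 9 libraries). The shared regions were higher by 10.2 points, in 9 of 9 libraries and by 6.01 to 23.0 points (exact two-sided sign-flip permutation test, p = 0.00391, adjusted p = 0.0117). The test takes the 9 libraries as independent, and same-numbered libraries at 48 h deviated together. With each such pair averaged, 6 values were left, the difference was 11.7 points and the call was lost (exact permutation test, p = 0.0312, adjusted p = 0.0938). When all 3 of 3 lists were required of each subunit, the difference fell to 0.0994 points (exact permutation test, adjusted p = 0.12). Untagged N2 worms of dataset 2 differed in the same direction, with the shared regions higher in all 6 lists, by 3.66 to 23.9 points. Without regions overlapping an N2 peak (610 and 2496 regions) the SNPC-4 difference was 9.31 points (exact permutation test, adjusted p = 0.0117, the 9 libraries again taken as independent). The part of the N2 background in the difference was not tested. In the snpc-1.2(-) libraries the shares of the regions without SNPC-1.2 were 76.8, 84.9 and 89.3%, and in the other 6 libraries 90.3 to 92.5%.

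The SNPC-4 peaks at the shared regions were also higher. The median log2 fold was 2.35 at the shared regions and 1.88 at the regions without SNPC-1.2, a difference of 0.47 in the mean over libraries (exact two-sided sign-flip permutation test, p = 0.00391, adjusted p = 0.0117), a ratio of 1.38. With the pairs at 48 h averaged it was 0.50 (exact permutation test, p = 0.0312, adjusted p = 0.0938). It was positive in 9 of 9 libraries, between 0.32 and 0.63. The difference depended on place. Outside the piRNA clusters (838 and 3575 regions) it was 0.14 (exact permutation test, p = 0.0234, adjusted p = 0.0703) and below 0 in 1 library at 48 h and 1 snpc-1.3(-) library, while inside the clusters, where only 15 regions lacked SNPC-1.2, it was between 1.47 and 1.64 in each library. In SNPC-1.1 replicate 2 the order was the other way, with a median fold of 4.29 at the shared regions and 5.59 at the regions without SNPC-1.2. In replicate 4 these were 3.53 and 3.38. In the N2 lists of dataset 2 the log2 difference was also positive, between 0.06 and 0.30. Without regions overlapping an N2 peak the SNPC-4 difference was 0.45 (exact permutation test, adjusted p = 0.0117, the 9 libraries taken as independent).

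Regions just inside the rule had somewhat higher folds than those just outside. These folds come from lists that the rule used, and the number of SNPC-1.2 lists with a peak split the regions. Each median covers only the regions with a summit in that list, so this order is a description and not a finding. At the 718 shared regions with SNPC-1.2 in exactly 2 lists the median SNPC-1.2 fold was 3.23 and 2.68 in replicates 1 and 2, and at the 698 regions with SNPC-1.2 in 1 list it was 2.70 and 2.17. Their SNPC-4 medians at 72 h were 5.50, 5.10 and 6.09 just inside the rule and 4.28, 4.00 and 4.79 just outside. The 651 regions with SNPC-1.2 in 3 lists had SNPC-4 medians of 7.54, 6.83 and 8.61.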

How the data were processed

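The authors deposited 1 peak list for each of 33 IP libraries, called against its input with MACS2 2.1.2 on WBcel235, per the submitters' processing notes, which also name deepTools; the aligner and filters are not given in the sources used here. In the deposited lists, column 7 is the ratio (fold) of IP over input, column 9 is −log10 q (at least 1.301, near q = 0.05), and column 10 is another value, the summit's offset in bp. Read counts were not used, so depth is unknown and no counting interval is given. The N2 library of replicate 2 at 56 h is described as SNPC-1.2 and was used as titled.

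SNPC-1.1 regions were merged at 1 bp. The fold of a region in a list is the highest among summits inside it. Genes came from RefSeq (WBcel235, 46926 genes, no strand). Clusters are runs of 100-kb bins with at least 30 piRNA genes. Shares were compared by exact permutation tests, adjusted (Benjamini-Hochberg) over 6 tests, and the scripts were tested on simulated data. The labels do not tie replicates to separate cultures, and worms of 48 h and 72 h may share one, so p-values measure the spread between samples, which may be technical. Same-numbered snpc-1.3(-) and SNPC-4 libraries at 48 h deviated together in the presence of peaks (correlation of deviations from the group means 0.19, 0.135 and 0.136 for numbers 1, 2 and 3), though not in log2 fold (0.288, 0.0987 and -0.0372); a block on the number ended both calls over 9 SNPC-4 libraries, given beside them. Named regions are the 3 highest of each class by the lowest of the 3 subunit medians of fold, the widest, those of extreme summit distance, and those with recurring AID peaks or without SNPC-4 at 48 h or in a null. The regions, classes and tests were chosen with earlier results of these data known. Python 3.11.15, numpy 2.4.6 and scipy 1.17.1 were used.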

Additional observations from a re-analysis of the deposited data

How the results depend on the processing

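Of 79 alternatives to the 6 tests, 69 kept the side of the threshold without a change of sign, 6 lost significance and 4 changed sign. The 4 tests of 3 against 3 libraries, with 11 alternatives each, could not pass 0.05, so only their direction could change. The 2 tests over 9 libraries had 17 and 18 alternatives, and all 6 losses were among these. The snpc-1.3 difference was 0 with summits required inside the region and with all 3 of 3 lists, both counted among the 69. The sign changes concern the difference without snpc-1.3, 0.146 points, which became -0.120 with −log10 q of at least 5 and -0.164 without regions overlapping other N2 peaks, and ranged from -0.183 (without snpc-1.3(-) replicate 1) to 0.584 when 1 library was left out. The higher share of SNPC-4 peaks fell to 0.0994 points (exact permutation test, adjusted p = 0.12) when all 3 of 3 lists were required, with 109 shared regions and 559 others, and the higher log2 fold to 0.14 (exact permutation test, adjusted p = 0.0703) outside the clusters. Leaving out 1 library gave 74.0 to 85.5 points for SNPC-4 against N2 at 48 h, 63.4 to 77.4 without snpc-1.2, 1.75 to 4.57 in the AID strain, 8.58 to 10.7 for the higher share and 0.45 to 0.49 for the higher log2 fold. With a replicate block the differences were 79.6, 0.146, 69.9 and 3.58 points and the exact permutation p was 0.25, the smallest 3 pairs allow, for all but the snpc-1.3 comparison (p = 0.75). For the higher share and the higher log2 fold a block ended both calls: with same-numbered libraries at 48 h averaged they were 11.7 points and 0.50 (exact permutation test, adjusted p = 0.0938 for each), and with same-numbered libraries of all 3 groups averaged 10.2 points and 0.47 (adjusted p = 0.3, at the smallest p that 3 values allow). By presence of peaks the numbers did not pair SNPC-4 with N2 libraries of dataset 2. By log2 fold they did at 48 h, with correlations of 0.174, 0.246 and 0.272 over 63 regions, and the AID strain could not be assessed.

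The number of shared regions was 109 with all 3 of 3 lists, 2550 with 1 of 3 and 610 without any N2 peak, and between 148 and 1369 when 1 list was left out (148 without SNPC-1.1 replicate 2, 150 without replicate 4, 652 without SNPC-1.2 replicate 1, 689 without replicate 2), and 1495 without the N2 list of replicate 2 at 56 h. Lists set apart, wide SNPC-1.2 regions, the N2 list and the averaged libraries were added as alternatives after seeing the data. The median distance between SNPC-1.1 and SNPC-4 was 8 bp with 1 summit in every library and 17.5 bp without N2 peaks, where that between SNPC-1.2 and SNPC-4 was 37 bp. Within 200 bp of the SNPC-1.1 summit 2 regions held a miRNA gene and 6 a ribosomal protein gene, and within 500 bp 40 did; the causes were not tested. The unknown depth of each list limits every count of peaks.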
